A study of Homo sapiens with 6 samples.

Results

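The intervals of dimethylated and monomethylated lysine 4 of histone H3 (H3K4me2 and H3K4me1) were compared in NCI-H526, an established human small cell lung cancer line treated with DMSO, the vehicle. They comprised 81619 H3K4me2 and 94689 H3K4me1 intervals, together 176308 of the 271093 intervals in the 4 peak lists analysed. Members were the distinct chromosome-start-end intervals of each list, and summits, the points of highest signal within an interval, were those deposited with it. The series holds 6 samples of this line, each a group of 1 library: H3K4me2 and H3K4me1 with DMSO, LSD1 with DMSO, LSD1 with the inhibitor labelled GSK552, and an input for each treatment. The labels attach the same treatment text, GSK2879552 at 1 µM over 24 h, to each of the 6 samples, DMSO ones included. Groups were taken from the sample descriptions. No source used here says whether the libraries came from 1 culture. The identity of the cells was not checked against marker genes, since peak lists hold no expression values. Positions are on hg19. There is 1 library a side, so the comparison is descriptive and carries no p-value. Percentages carry 95% Wilson intervals where given, which cover counting error only, and neighbouring intervals are not independent.

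Lysine 4 of histone H3 carries 1, 2 or 3 methyl groups. As background, H3K4me1 is typical of enhancers and of the outer parts of active promoters, while H3K4me2 marks promoters as well as enhancers and often lies closer to the start site. LSD1 (KDM1A) removes methyl groups from both forms. H3K4me1 on either side of H3K4me2 is an arrangement known from active promoters. No gene annotation of hg19 was used here, so intervals are named by position.

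H3K4me2 covered 60.1 Mb with a median interval width of 411 bp (quartiles 230 and 968.5), and H3K4me1 covered 67.8 Mb with a median of 416 bp (273 and 774). H3K4me2 intervals had the higher fold enrichment over the caller's background, the authors' own value for each peak, with a median of 6.04 against 4.99. The H3K4me2 list also had more summits per interval, since 37.7% of H3K4me2 and 27.8% of H3K4me1 intervals held more than 1. Both lists were broken into short pieces: 45.2% of the gaps between neighbouring H3K4me2 intervals and 40.8% of those between H3K4me1 intervals were 500 bp or less. The narrowest interval was 164 bp for H3K4me2, reached by 4645 intervals, and 214 bp for H3K4me1, reached by 5910. The read depth of the libraries was not stated in the material used, so the precision of single intervals is unknown.

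A larger share of H3K4me2 than of H3K4me1 intervals met the other mark. H3K4me1 overlapped 51532 H3K4me2 intervals (63.1%, interval 62.8 to 63.5%) by at least 1 bp, and H3K4me2 overlapped 44921 H3K4me1 intervals (47.4%, 47.1 to 47.8%). Nesting was the more frequent for H3K4me2: 24880 H3K4me2 intervals lay wholly inside 1 H3K4me1 interval (30.5%), against 12699 H3K4me1 intervals inside H3K4me2 (13.4%). No pair of intervals had the same start and end. A further 12.4% of H3K4me2 intervals held at least 1 whole H3K4me1 interval without being nested, and 20.3% overlapped only in part. For H3K4me1 these shares were 17.5% and 16.5%. When both partners of an overlap had to share at least 50% of their length, 12383 H3K4me2 and as many H3K4me1 intervals matched, which is 15.2% and 13.1% of the lists. By length, 46.0% of the sequence under H3K4me2 and 40.7% of that under H3K4me1 was shared. Whether more or fewer than 50% of intervals overlapped depended on the lists used: among the 50% with the highest scores it was 47.1% of H3K4me2 and 40.9% of H3K4me1, with stitching over gaps of up to 500 bp 70.2% and 56.0%, and with the H3K4me1 list at the length of the H3K4me2 list 60.1% and 50.5%.

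Nested intervals were shorter than the intervals that held them, and their deposited folds were lower. These folds come from 2 lists, each from its own library, so they do not rank the marks by strength. Nested H3K4me2 intervals had a median width of 292 bp and a fold of 5.15, and the H3K4me1 intervals around them had 1802 bp and a fold of 8.35. Nested H3K4me1 intervals had 358 bp and a fold of 4.73, inside H3K4me2 intervals of 1798 bp and a fold of 13.2. The host was a median of 4.76 times as wide as the nested H3K4me2 interval and 4.22 times as wide as the nested H3K4me1 interval. A short interval is nested more easily than a wide one, so a difference in width follows in part from the definition. Of the 16602 H3K4me1 hosts, 11616 held 1 H3K4me2 interval and 4986 held 2 or more, up to 18. Of the 10116 H3K4me2 hosts, 8034 held 1 H3K4me1 interval and 2082 held 2 or more, up to 7.

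The marks differed in how overlap changed with strength. Among H3K4me1 intervals, overlap with H3K4me2 rose with every one of the 10 score deciles, from 27.6% in decile 1 to 94.5% (8951 of 9469) in decile 10. Of the 1000 highest-scoring H3K4me1 intervals, 998 overlapped H3K4me2, and the summit itself was covered in 963. H3K4me2 showed no such rise: its overlap with H3K4me1 was 62.3% in the lowest decile, 66.8% in decile 3, 54.1% in decile 8 and 72.6% (71.6 to 73.6%) in the highest. The highest-scoring summit of an H3K4me2 interval lay under H3K4me1 in 59.2% of cases in decile 4 but in 30.3% in decile 9 and 36.9% in decile 10. Strong H3K4me2 intervals thus often met H3K4me1 beside their summit and not at it, in intervals whose median width was 1855 bp in decile 10 against 203 bp in decile 1. Among the 1000 highest-scoring H3K4me2 intervals, 860 overlapped H3K4me1 and 544 had it at the summit.

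**Figure D1:**
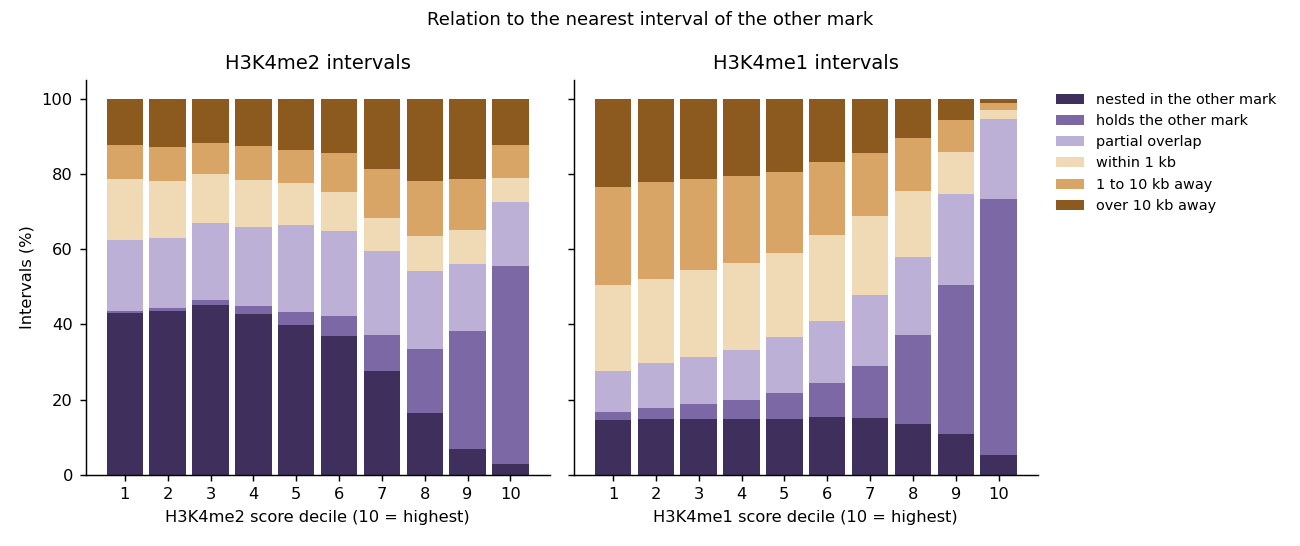
Stacked bars give the percentage of H3K4me2 (left) and H3K4me1 (right) intervals in each relation to the other mark, by score decile of the interval's own list (x axis, 10 is the highest). Overlapped intervals (purple shades) rise from 27.6% to 94.5% for H3K4me1, while nested H3K4me2 falls from 43.0% to 2.82% and 52.8% of the strongest H3K4me2 intervals hold H3K4me1.

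The composition of the H3K4me2 overlap also turned over with strength. Nested intervals made up 43.0% of the lowest and 2.82% of the highest decile, and intervals holding H3K4me1 made up 0.490% and 52.8%. H3K4me2 far from H3K4me1 was not the weak end of the list: the share with no H3K4me1 within 10 kb was 12.4% in decile 1, 21.9% in decile 8, 21.4% in decile 9 and 12.4% in decile 10. For H3K4me1 the corresponding share fell from 23.4% in the lowest to 1.15% in the highest decile.

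Coverage by the other mark was then read at fixed distances from the highest-scoring summit. Around the strongest H3K4me2 summits (highest decile), 36.9% of summits were covered by H3K4me1, 28.5% of positions 500 bp to the left and 28.2% to the right, and 25.9% and 26.4% at 1 kb. Coverage around H3K4me2 summits of decile 5 began higher, at 58.8%, and was 46.4% and 47.7% at 500 bp and 36.6% and 37.0% at 1 kb. From 2 kb outward the H3K4me2 classes came together, with 20.4% to the left for the highest decile and 20.2% for decile 5. The averaged H3K4me1 profile therefore had a low shoulder around strong H3K4me2 summits and no trough at the summit. Around the strongest H3K4me1 summits, H3K4me2 covered 77.1% of summits, 51.8% and 54.6% at 500 bp and 22.3% and 22.8% at 2 kb.

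**Figure D2:**
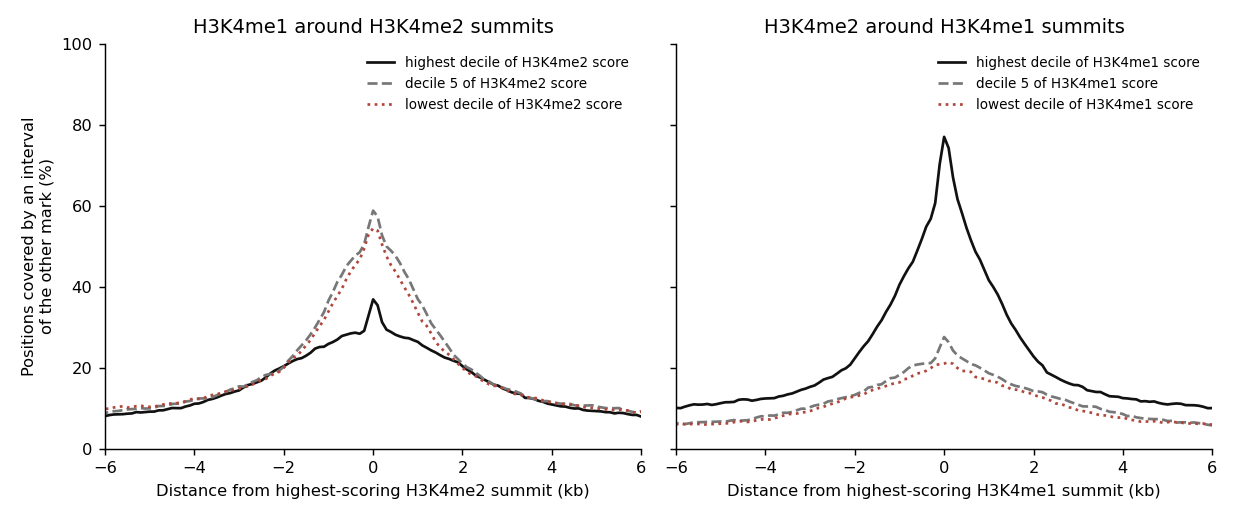
Percentage of positions covered by an H3K4me1 interval around H3K4me2 summits (left) and by an H3K4me2 interval around H3K4me1 summits (right), against distance from the summit in kb, for the highest score decile, decile 5 and the lowest decile of the centred mark. H3K4me1 covers fewer of the strongest H3K4me2 summits (36.9%) than of those in decile 5 (58.8%), and H3K4me2 covers 77.1% of the strongest H3K4me1 summits.

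Flanking was defined as an uncovered highest-scoring summit with the other mark on both sides of it, each flank crossing the interval's edge or beginning within 1 kb outside it. H3K4me1 flanked 4737 H3K4me2 intervals in this way (5.80%, 5.65 to 5.97%), and H3K4me2 flanked 2268 H3K4me1 intervals (2.40%, 2.30 to 2.49%). Taken over intervals with an uncovered summit only, the shares were 11.7% and 3.74%. A flank on 1 side only was found at 14.9% of H3K4me2 and 25.1% of H3K4me1 intervals. Of the flanked H3K4me2 intervals, 567 had H3K4me1 crossing both edges, 2321 had it crossing 1 edge and 1849 had it crossing neither. Flanked H3K4me2 intervals were not the wide ones, since their median width was 348 bp and that of the others 416 bp. The flanked share was 8.00% in the lowest score decile, 4.04% in decile 9 and 4.88% in the highest. With intervals stitched over gaps of up to 500 bp the shares were 2.91% for H3K4me2 and 0.507% for H3K4me1, and with the 50% of intervals with the highest scores in each list 2.64% and 0.720%. That last setting also took the nested share of H3K4me2 to 17.5%.

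Overlapping intervals of both marks were also joined into domains, and the order of the marks was read along each. Of 116973 domains, 49757 (42.5%) carried H3K4me1 alone, 30080 (25.7%) H3K4me2 alone and 37133 (31.7%) both marks in overlap; the remaining 3 fell in none of these classes. Where both were present, H3K4me1 more often formed the outside: 37.5% (37.0 to 38.0%) of these domains had H3K4me1 alone at both ends and 22.7% (22.2 to 23.1%) had H3K4me2 alone at both ends. Another 39.4% had a different mark at each end. The narrowest H3K4me1 interval, at 214 bp, was wider than the narrowest H3K4me2 interval, at 164 bp. The part of this width limit in the order of the ends was not tested. The simplest order, with both marks in the middle and H3K4me1 on the outside, was found 8189 times. Its mirror, with H3K4me2 on the outside, was found 5865 times. In these 2 orders 1 interval is nested in the other mark with its summit covered, so they do not meet the definition of flanking. The full order from H3K4me1 through both marks to H3K4me2 alone and back formed 883 domains and its mirror 594. Reading direction made little difference, as H3K4me1 to H3K4me2 was found 4810 times and the reverse 4814 times.

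**Figure D3:**
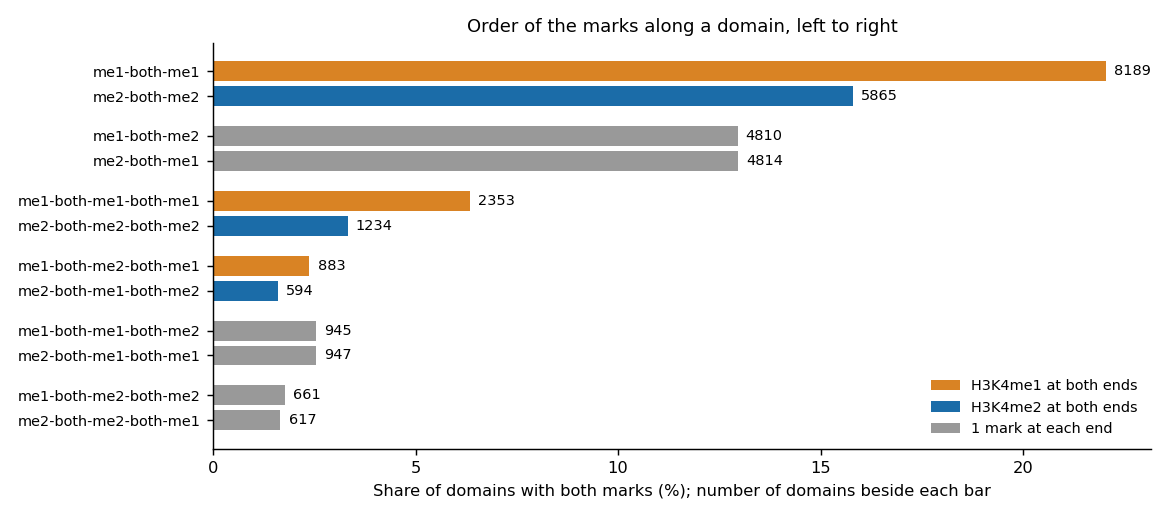
Horizontal bars give each order of the marks as a percentage of the 37133 domains with both marks, with the number of domains beside the bar and each order paired with its mirror. Orders with H3K4me1 at both ends (orange) outnumber their mirrors with H3K4me2 at both ends (blue), 8189 to 5865 for the simplest order, while orders with 1 mark at each end (grey) are about equal in either direction.

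The excess of H3K4me1 on the outside depended on the size of the domain. Among domains under 500 bp, 31.5% had H3K4me1 and 9.90% had H3K4me2 at both ends. Between 1 and 2 kb, which held 12346 domains, the shares were closest, at 35.7% and 30.04%. Between 2 and 4 kb they were 39.0% and 28.7%, and from 4 kb upward they were 55.2% and 10.8% of 2119 domains. By sequence, 27.6 Mb lay under both marks, 40.2 Mb under H3K4me1 alone and 32.5 Mb under H3K4me2 alone.

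Intervals without the other mark fell into near and far ones. For the 30087 H3K4me2 intervals without H3K4me1, the median distance to the nearest H3K4me1 interval was 3894 bp (quartiles 723.5 and 30737), and for the 49768 H3K4me1 intervals without H3K4me2 it was 2247 bp (593 and 13812). H3K4me2 on its own was more often far away: 12428 of these intervals (41.3%, 40.8 to 41.9%) lay over 10 kb from H3K4me1, and 14734 of the H3K4me1 ones (29.6%) lay over 10 kb from H3K4me2. Within 1 kb lay 30.4% and 35.9%. The far H3K4me2 intervals were stronger than the nested ones, with a median fold of 6.75 against 5.15 and a median width of 450 against 292 bp. The far H3K4me1 intervals had a median fold of 4.59 and a median width of 317 bp.

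Summits of the marks were close together where the marks overlapped. Over all 178083 H3K4me2 summits, the nearest H3K4me1 summit was a median of 359 bp away (quartiles 100 and 1624), and over all 175135 H3K4me1 summits the nearest H3K4me2 summit was 342 bp away (96 and 1213). For summits of nested intervals these medians fell to 90 bp for H3K4me2 and 84 bp for H3K4me1, and 53.4% and 56.7% of nested summits had a summit of the other mark within 100 bp. In intervals flanked on both sides the medians were 333 and 295 bp. A nested interval lies within an interval of the other mark, while flanking requires an uncovered summit. The difference in these distances therefore follows in part from the definitions. In the highest score decile the median distance was 417 bp from H3K4me2 to H3K4me1 summits and 171 bp from H3K4me1 to H3K4me2 summits. With only the highest-scoring summit of each interval, the medians over all intervals were 586 and 801 bp, and with the 50% of intervals with the highest scores they were 988 and 739 bp.

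The deposited summits were not centred in their intervals. In H3K4me2 intervals with 3 or more summits, the first summit was a median of 124 bp from the left edge and the last a median of 319 bp from the right edge, and the left distance was the shorter in 80.2% of 20744 intervals. H3K4me1 intervals of this kind had 132 and 344 bp, with the left distance shorter in 81.6%. With 1 summit the distances were 112 and 142 bp for H3K4me2 and 139 and 184 bp for H3K4me1. Between pairs of summits within 100 bp of each other, the H3K4me1 summit was a median of 7 bp to the left of the H3K4me2 summit where only the H3K4me1 interval had several summits, and 5 bp to the right where only the H3K4me2 interval did. Where both had 1 summit the median offset was 1 bp to the left, and where both had several it was 0. The direction of the offset thus moved with the number of summits per interval, and its cause was not tested. With interval centres in place of summits, chosen after the data were seen, 5.68% of H3K4me2 and 2.66% of H3K4me1 intervals were flanked.

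Neighbouring summits of 1 mark within an interval were a median of 237 bp apart for H3K4me2 (quartiles 118 and 370, 96464 pairs) and 266 bp for H3K4me1 (124 and 429, 80446 pairs). The spacings fell into a short and a long class in both lists. For H3K4me2 the fullest 10 bp bins were at 100 to 109 bp (4147 pairs) and 210 to 219 bp (3019 pairs), with 418 pairs at 160 to 169 bp between them. For H3K4me1 they were at 90 to 99 bp (3199 pairs) and 260 to 269 bp (1598 pairs), with 159 pairs at 210 to 219 bp. The least filled bin held the width of the narrowest interval in each list, 164 and 214 bp, and the part of peak calling in this was not tested. Short spacings made up 34.6% of pairs for H3K4me2 and 44.8% for H3K4me1. They were more frequent in H3K4me1 intervals nested in H3K4me2 (54.0%) than in those holding H3K4me2 (41.5%), whose median widths were 358 and 1321 bp. The high share was not particular to nesting. H3K4me1 intervals without H3K4me2 had 58.2% within 1 kb of it, 51.1% at 1 to 10 kb and 53.2% over 10 kb away. Gaps between neighbouring summits were counted over all intervals, and a gap in an interval without the other mark can hold none of its summits. Most gaps held no summit of the other mark, 74.4% for H3K4me2 and 63.0% for H3K4me1, and 19.7% and 28.2% held exactly 1.

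**Figure D4:**
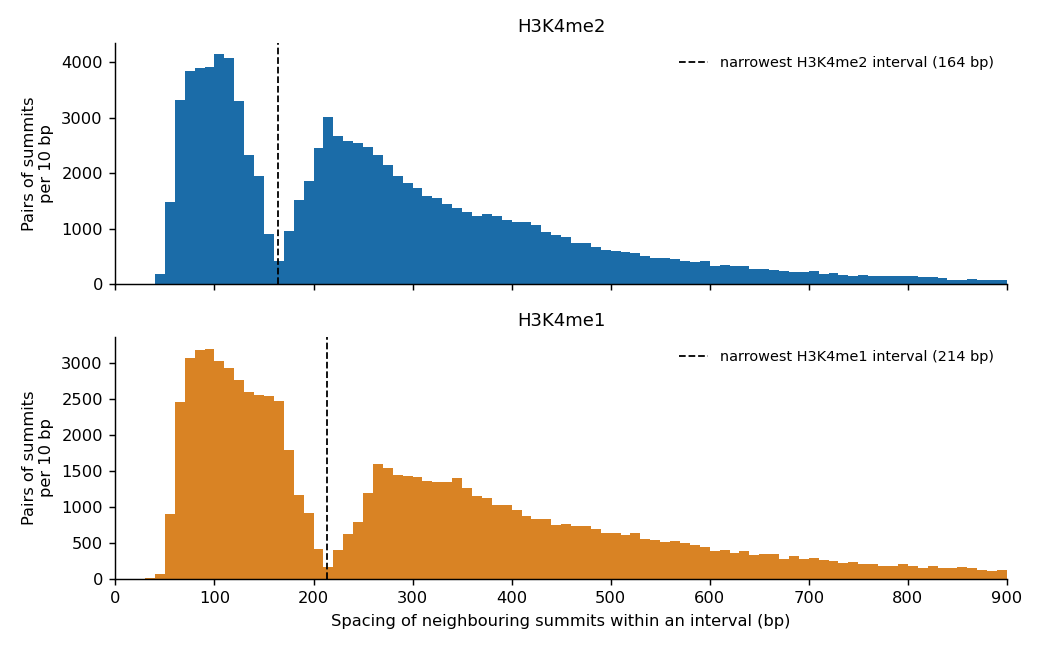
Histograms count pairs of neighbouring summits within an interval by their spacing in 10 bp bins, for H3K4me2 (top) and H3K4me1 (bottom); the dashed line is the narrowest interval of the list. Both lists have a short and a long class of spacings, and the gap between them lies at the narrowest interval, 164 bp for H3K4me2 and 214 bp for H3K4me1.

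Chromosomes differed in the balance of the marks. Over chromosomes 1 to 22 and X, the overlap of H3K4me2 with H3K4me1 ran from 43.4% (41.7 to 45.0%) on chromosome 19 to 74.8% (72.9 to 76.5%) on chromosome 13, beside 63.1% over the whole list. The same 2 chromosomes had the lowest and highest number of H3K4me1 per H3K4me2 interval, 0.675 and 1.41. Chromosome 19 was at the other end for H3K4me1, of which 64.6% (62.6 to 66.6%) overlapped H3K4me2, while chromosomes other than 19 and Y lay between 43.0% and 53.5%. H3K4me2 with no H3K4me1 within 10 kb was most frequent on chromosomes X (28.9%) and 19 (27.3%), and lay between 7.90% and 19.7% on the others except Y. Flanking ran from 3.72% of H3K4me2 intervals on chromosome 19 to 7.25% on X. Chromosome Y held 56 H3K4me2 and 28 H3K4me1 intervals and is left out of these ranges.

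The following regions, picked after their values were seen from the highest-scoring ones of each arrangement, show these patterns. A strong H3K4me2 interval flanked on both sides lay at chromosome 1, 156737511 to 156740205, with a fold of 22.3 and score rank 97. H3K4me1 intervals stood 957 bp to its left (fold 3.32) and 762 bp to its right (fold 3.78). The left one lay wholly inside a neighbouring H3K4me2 interval (fold 15.2), and the right one held a short H3K4me2 interval (fold 3.89). Another 2 short H3K4me1 intervals, right of the summit of the named interval, covered 34.8% of it. The highest-scoring flanked interval, at chromosome 1, 144925839 to 144934654, was 8816 bp wide with 24 summits and a fold of 17.9. H3K4me1 crossed both of its edges (folds 6.82 and 6.23) and covered 6616 bp of it, leaving the summit free. The strongest flanked H3K4me1 interval was at chromosome 16, 72962161 to 72964161 (fold 16.8, rank 486), with H3K4me2 183 bp to the left (fold 6.68) and 10 bp to the right (fold 7.42) and 3 H3K4me2 intervals inside.

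Strong H3K4me2 far from H3K4me1 was represented by chromosome 14, 70654203 to 70656435, with a fold of 24.6, 9 summits and the nearest H3K4me1 interval 175622 bp away. Another at chromosome 7, 116164675 to 116167216, had a fold of 26.0 and H3K4me1 no closer than 24031 bp. The strongest H3K4me1 intervals far from H3K4me2 stood lower in the ranking of their own list, and their deposited folds were lower. The first of these, at chromosome 2, 15938144 to 15940531, had rank 1579 and a fold of only 2.92, and the next, at chromosome 5, 139240229 to 139243850, had a fold of 10.4 and H3K4me2 15466 bp away. Over the 5 highest-scoring intervals of each kind, folds ran from 15.1 to 26.0 for far H3K4me2 and from 2.92 to 11.1 for far H3K4me1.

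Among the 5 strongest nested H3K4me2 intervals, 3 lay on chromosome 2 between 15514394 and 16155610, with folds of 5.24 to 6.44 beside −log10 q values of 89.2 to 135.7. The other 2 had high folds: chromosome 20, 821628 to 824029, had a fold of 27.0 inside H3K4me1 of 3775 bp (fold 10.3), and chromosome 17, 56400241 to 56403819, had 22.6 inside H3K4me1 of 5511 bp (fold 15.8). Strong nested H3K4me1 was found at chromosome 1, 155948620 to 155953513, with a fold of 18.9 inside 10418 bp of H3K4me2 (fold 25.1). The H3K4me1 interval with most H3K4me2 inside it was at chromosome 1, 10732384 to 10753478, 21095 bp wide with 59 summits and 18 nested H3K4me2 intervals, and H3K4me2 covered 70.1% of it. Among H3K4me2 intervals the most was 7 nested H3K4me1 intervals, reached by 2. The wider, at chromosome 12, 54378887 to 54397264, spanned 18378 bp with 56 summits, and H3K4me1 covered 44.4% of it. The other, at chromosome 14, 85995174 to 86001173, spanned 6000 bp with 14 summits, and H3K4me1 covered 40.9% of it.

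**Figure D5:**
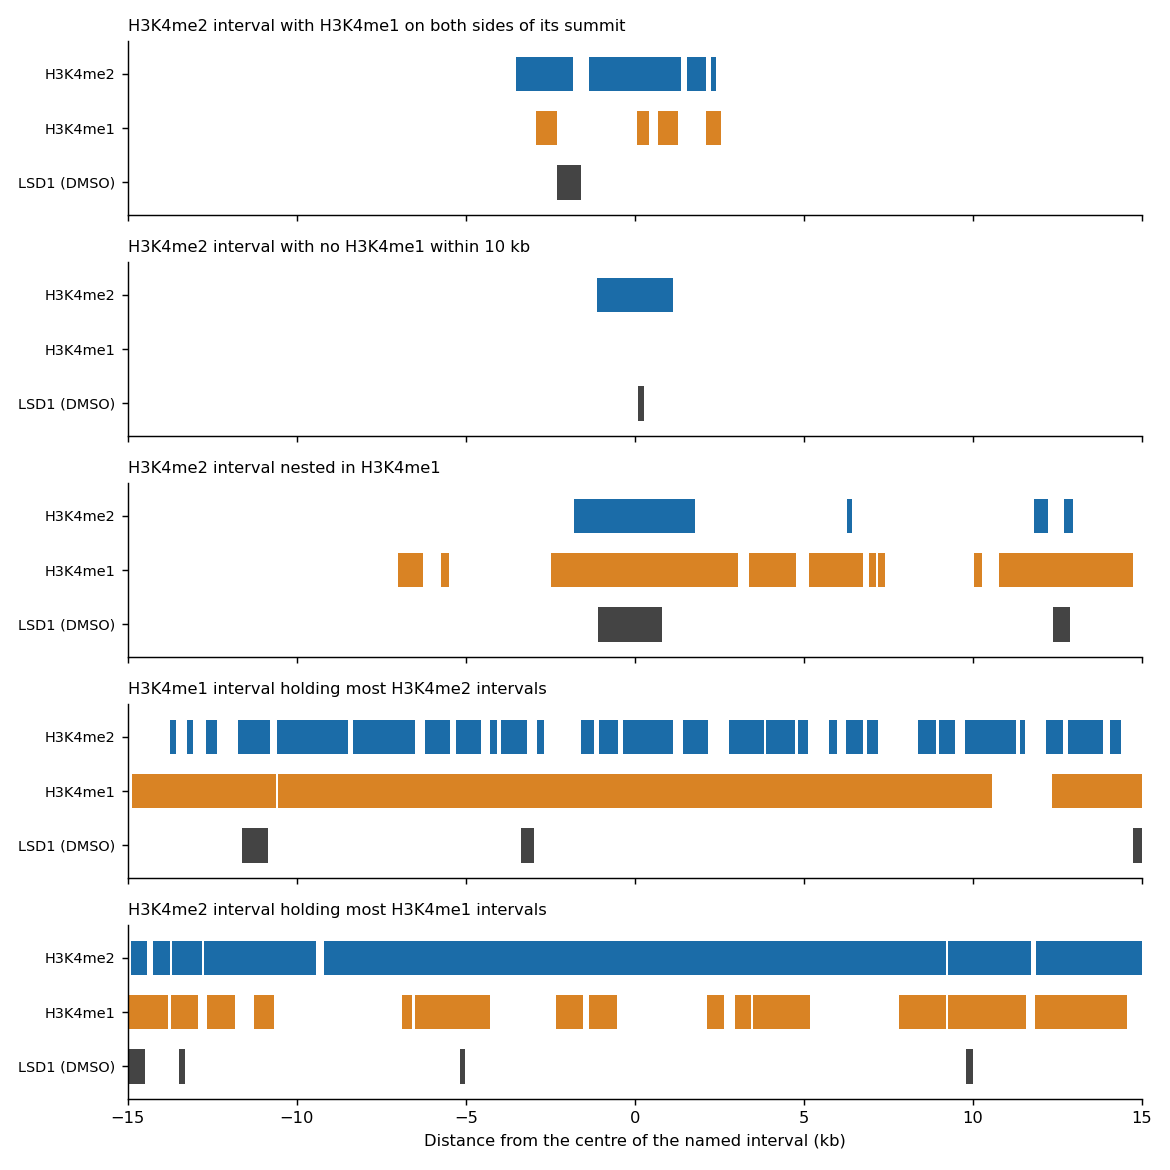
Deposited intervals of H3K4me2 (blue), H3K4me1 (orange) and LSD1 with DMSO (grey) around the centres of 5 named intervals, against distance from the centre in kb. From top to bottom the named interval is H3K4me2 with H3K4me1 on both sides, H3K4me2 with no H3K4me1 within 10 kb, H3K4me2 nested in H3K4me1, H3K4me1 holding 18 H3K4me2 intervals and H3K4me2 holding 7 H3K4me1 intervals.

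LSD1 is a readout that was not used to define the intervals or their classes. With DMSO it overlapped 35.4% of all H3K4me2 and 23.7% of all H3K4me1 intervals. It overlapped 40.9% (39.5 to 42.3%) of flanked, 31.6% (31.1 to 32.2%) of nested and 25.9% (25.2 to 26.7%) of far H3K4me2 intervals. The shares were higher among H3K4me2 intervals that held H3K4me1 (54.1%) or overlapped it in part (43.1%). Those that held H3K4me1 were wide, with a median of 1626 bp. LSD1 overlapped 29.6% of them below 500 bp, 49.8% at 1 to 2 kb and 66.6% at 2 to 4 kb. All H3K4me2 intervals of these widths had 22.9%, 53.5% and 68.9%. Among these widths, the holding intervals were above the share of all only below 500 bp. There their median width was 407 bp, against 246 bp for all. Other widths were not compared. Width moved with the relation to H3K4me1, since nested intervals had a median of 292 bp, and the order of nested and flanked differed with width. Below 500 bp, LSD1 overlapped 23.6% of nested, 30.7% of flanked and 14.9% of far H3K4me2 intervals, beside 22.9% of all of that width. Among H3K4me2 intervals of 1 to 2 kb, LSD1 overlapped 67.8% of nested, 57.7% of flanked and 43.1% of far intervals, beside 53.5% of all. Among those of 2 to 4 kb it overlapped 86.4%, 68.3% and 65.3%, beside 68.9% of all, so that flanked intervals were at the level of their width class. In the highest score decile, where LSD1 overlapped 5027 of 8162 H3K4me2 intervals (61.6%), it was found at 211 of 230 nested H3K4me2 intervals (91.7%, 87.5 to 94.6%) and at 563 of 1012 far ones (55.6%), a difference of 36.1 points (Newcombe interval 30.9 to 40.3). Without chromosome 2, the share of nested intervals was 91.7% of 206. Median widths of these nested and far intervals were 2218.5 and 1465 bp.

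With GSK552, LSD1 overlapped 40.8% of all H3K4me2 intervals and 73.7% of those in the highest decile. In that decile it overlapped 94.3% of nested and 72.6% of far intervals, the latter near the share of the whole decile, a difference of 21.7 points (17.1 to 25.4). Over intervals of every strength, nested minus far was 5.73 points with DMSO (4.76 to 6.69) and −4.79 points with GSK552 (−5.82 to −3.77). Among intervals of 1 to 2 kb it was 24.7 points with DMSO (21.8 to 27.6) and 14.0 points with GSK552 (11.1 to 16.8). No test between the treatments was possible with 1 library each. The histone marks are those with DMSO in both cases. For H3K4me1 in the highest decile, LSD1 with DMSO overlapped 63.6% of all intervals, 66.9% of the intervals holding H3K4me2, 51.1% of those nested in it and 32.1% (24.1 to 41.4%) of the 109 far from it.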

How the data were processed

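ChIP-seq peak lists of H3K4me2 and H3K4me1 with DMSO, and of LSD1 with DMSO and GSK552, were used as deposited. BWA, Picard, MACS2 2.0 and hg19 are named in the submitters' processing notes. For the control, duplicate handling and depth, details were not given in the sources used here. Columns were read from the layout MACS2 writes. The deposited score is 10 times the −log10 q, which held in at least 99.9% of the rows of each histone list; the deposited −log10 p was not used. The deposited fold enrichment is the authors' ratio of peak over background, and it describes peaks within a list. The smallest −log10 q was 2.02 for H3K4me2 and 2.01 for H3K4me1.

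The 178083 H3K4me2 and 175135 H3K4me1 rows, 1 per summit, were reduced to distinct intervals with the highest score, fold and summit. The search was tested on simulated data and matched a count of all pairs on chromosome 21 (656 overlapped, 341 nested, 51 flanked). Named regions are the 5 highest-scoring of each arrangement and the 3 intervals of each mark that hold most of the other. Examples were picked from these sets after their values were seen. The members, lists and classes were chosen with earlier results of these data known. Alternatives were the 50% highest-scoring intervals, stitching over 500 bp, chromosomes 1 to 22, reciprocal overlap of 50%, flanks of 500 bp and 2 kb, equal list length, highest summits and interval centres. Sequences and gene names are not printed, since the reference tables are on GRCh38. Python 3.11.15, numpy 2.4.6, pandas 2.3.3 and matplotlib 3.10.9 were used.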

Additional observations from a re-analysis of the deposited data

How the results depend on the processing

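Depth is unknown, so a weak interval missing from a list is not shown to be absent. The cause of each change was not tested, unless the setting itself removes intervals or summits. Interval centres, the settings for domain ends and the removal of chromosome 2 were added after seeing the data. No paired analysis was possible because no group held a second library. In every setting run, H3K4me2 had the larger share overlapped, nested and flanked on both sides, and H3K4me1 was the more often at both ends of a domain. Within score deciles of each list, the order of overlap and nesting was not the same throughout. In decile 10, 72.6% of H3K4me2 and 94.5% of H3K4me1 intervals were overlapped, and 2.82% and 5.27% were nested. The flanked shares there were 4.88% and 1.83%. For reciprocal overlap 12383 intervals matched in each list, so that difference in share follows from list length alone. A flank on 1 side only went the other way, at 14.9% of H3K4me2 and 25.1% of H3K4me1 intervals as first defined.

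Values below are in the order H3K4me2, then H3K4me1. With the 50% of intervals with the highest scores, 47.1% and 40.9% were overlapped, 17.5% and 11.5% nested and 2.64% and 0.720% flanked; summit distances were 988 and 739 bp; LSD1 lay at 46.1% of flanked and 36.7% of nested H3K4me2; and H3K4me2 was at both ends of 24.2% and H3K4me1 of 35.0% of domains. With stitching, 70.2% and 56.0% were overlapped, 35.2% and 14.9% nested and 2.91% and 0.507% flanked; LSD1 lay at 56.0% of flanked and 47.2% of nested H3K4me2; and the ends were 21.7% and 48.0%. With the H3K4me1 list at the length of the H3K4me2 list, 60.1% and 50.5% were overlapped, 30.1% of H3K4me2 was nested and 5.08% flanked, and the ends were 21.8% and 38.7%. With a reciprocal overlap of 50%, 15.2% and 13.1% matched. Flanks within 500 bp gave 4.15% and 1.64%, and within 2000 bp 7.47% and 4.04%. The highest summits alone gave distances of 586 and 801 bp, and interval centres 525 and 739 bp and, for H3K4me1, 2.66% flanked. On chromosomes 1 to 22, 63.6% of H3K4me2 was overlapped, 30.8% nested and the distance 353 bp; the other 11 values stayed within their counting intervals.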

Other observations

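Stretches of consecutive intervals of 1 mark, with no interval of the other mark on or between them, were looked for after the data were seen. H3K4me1 had more stretches, 21665 against 14417 for H3K4me2. Of these, 2219 and 1146 held 5 or more intervals, the larger share for H3K4me1. Stretches of 10 or more numbered 156 for H3K4me1 and 140 for H3K4me2, the larger share of its stretches for H3K4me2. The few longest were of H3K4me2. The longest held 44 H3K4me2 intervals at chromosome 6, 28349764 to 28830827, over 481 kb, with a median fold of 6.81 and a median width of 524.5 bp. The next held 39 at chromosome 6, 27247426 to 27638354, and 38 at chromosome 19, 58326445 to 58819368. The longest H3K4me1 stretches held 22 intervals each, at chromosome 12, 131816662 to 131911561, and chromosome 3, 140141398 to 140639374, with median folds of 4.75 and 4.56.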
